A study of Homo sapiens with 12 samples.

Results

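The genes described here are 10 genes that mark melanocyte identity, read by symbol from a table of estimated counts that held 56609 symbols. They are 4 transcription factors of the lineage (MITF, SOX10, PAX3 and TFAP2A) and 6 pigment genes (PMEL, MLANA, TYR, TYRP1, DCT and GPR143), and all 10 symbols were found. RNA was sequenced from A375, an established human line of malignant melanoma, in 12 libraries that formed 4 groups of 3 replicates. The wild-type groups were unedited A375 cells given DMSO, the solvent, or 500 nM JQ1 for 48 h. The knockout groups were A375 cells with MAPKAPK2 knocked out by CRISPR/Cas9, given DMSO or 500 nM JQ1 for the same 48 h. MAPKAPK2 encodes the stress-activated kinase MK2, and JQ1 displaces BET bromodomain proteins from acetylated chromatin. The labels do not say whether the knockout cells were 1 clone or a pool, nor whether the replicates were separate cultures. P-values therefore measure only the spread between these samples, which may be technical.

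MITF is the transcription factor on which melanocytes depend for their survival and for the making of pigment. SOX10 and PAX3 activate the MITF promoter that is used in melanocytes, and TFAP2A acts beside MITF at many of its targets. The pigment genes encode the enzymes that make melanin (TYR, TYRP1 and DCT), the fibril protein of the melanosome (PMEL), a melanosome protein widely used as a melanoma antigen (MLANA) and a receptor of the melanosome membrane (GPR143). Melanomas can keep the lineage factors while the pigment genes are low.

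MITF binds the E-box CATGTG, and the pigment enzyme genes are known for an extended form of it, TCATGTGCT, close to their start sites. The matches to that extended form are shown because they were found in the promoters of TYR, TYRP1, DCT and GPR143, all pigment genes. They come from RefSeq promoters on build GRCh38.p14, each running from 250 bases before to 50 bases after a start site, and 8 of the 10 members were matched there with 12 promoters in all, the exceptions being SOX10 and PMEL. The windows are 30 bases long, written 5′ to 3′ on the gene's strand, and the capitals mark the match, which reads AGCACATGA where it lies on the opposite strand.

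TYR, chr11:89177760-89177789, plus strand, match from base -105: gaaaagtcagTCATGTGCTtttcagaggat

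TYRP1, chr9:12693230-12693259, plus strand, match from base -145: tggaagggaaTCATGTGCTgatcaagtcct

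DCT, chr13:94479880-94479909, minus strand, match from base -217: gtttggctggAGCACATGAgcccagataaa

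DCT, chr13:94479798-94479827, minus strand, match from base -135: gcactttgggTCATGTGCTaatgatgaggg

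GPR143, chrX:9765863-9765892, minus strand, match from base -35: cagcccgcccAGCACATGAcccaggcaggc

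Both strands were searched for both motifs, and every match to TCATGTGCT is also a match to CATGTG. The short E-box was present in the promoters of 4 members and in 11.1% of all 35116 promoters of that length. TCATGTGCT was present in 0.216% of them, which is 76 promoters. The other motif, the cyclic AMP response element TGACGTCA, is shown because MITF is known to be induced through it by hormone signals. It was present in 1.85% of all promoters and in 1 of the 3 MITF promoters of the table, again with capitals for the match.

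MITF, chr3:69936429-69936458, plus strand, match from base -152: gaaaaaaagcaTGACGTCAagccaggggga

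These matches describe the letters in the windows, and neither binding nor chromatin was measured. The PAX3, TFAP2A and MLANA promoters in the table had no match to the 3 motifs in their windows.

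The libraries held between 25316900 and 34594300 estimated counts, and levels are given in CPM, counts per 1000000 of the TMM-scaled library. A count of 0 allowed a level of up to 0.0825 to 0.122 CPM, the value of 3 counts, and that limit covers counting error only. The targeted gene, MAPKAPK2, had 89.6 ± 2.20 CPM in wild-type cells with DMSO and 12.4 ± 1.15 CPM in knockout cells (SD, n = 3). With JQ1 it had 117 ± 4.31 and 14.4 ± 1.61 CPM. Knockout JQ1 replicate 3 stood apart. Its counts differed from those of its 2 replicates by a chi-square per degree of freedom of 23.8 and 25.1, against 3.21 to 7.05 for the other 10 pairs of replicates. It also had the steepest relation to base composition: its genes of high GC content (61.3% GC) lay 0.498 higher on the log2 scale, relative to those of low GC content (38.4% GC), than over all libraries, against -0.243 to 0.213 in the other 11. Markers of other cell types were low, with summed levels of 4 to 7.31 CPM for 6 keratinocyte genes, 1.79 to 3.85 CPM for 5 immune genes and 0.812 to 2.35 CPM for 3 endothelial genes, and KRT1 was at 0 in all 12 libraries. These levels moved with JQ1: the immune genes summed to 3.19 to 3.85 CPM in the DMSO libraries and 1.79 to 2.4 CPM in the JQ1 libraries, without overlap. The endothelial genes summed to 1.22 to 2.35 CPM with DMSO and 0.812 to 1.64 CPM with JQ1, and the keratinocyte genes to 5.58 to 7.31 and 4 to 5.59 CPM, with overlap. Of the 14 markers 6 had enough counts to be tested, and LYZ, KRT14 and VWF were called lower with JQ1 in both genotypes, by log2 values of -1.5, -1.32 and -1.22 in wild type and -1.21, -2.53 and -1.81 in knockout. KRT14 was also lower in knockout than in wild-type cells with JQ1 (-1.76, edgeR adjusted p = 0.0444). Their part in the results below was not tested.

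A375 cells held all 4 lineage factors and very little RNA of the pigment genes. A gene was called silent where its mean was below 0.1 CPM in each of the 4 groups, low where its highest group mean was from 0.1 to below 1 CPM, and expressed at 1 CPM or more. By this rule 0 of the 10 members were silent, 5 were low (MLANA, GPR143, DCT, TYRP1 and TYR) and 5 were expressed (SOX10, MITF, PAX3, TFAP2A and PMEL). PMEL was expressed only through its JQ1 groups. TYR came closest to silence, with a mean below 0.1 CPM in 3 of the 4 groups, and it counted as silent when knockout DMSO replicate 1 was left out. With a limit of 1 CPM in place of 0.1 CPM, the 5 low genes would all be called silent.

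**Figure D1:**
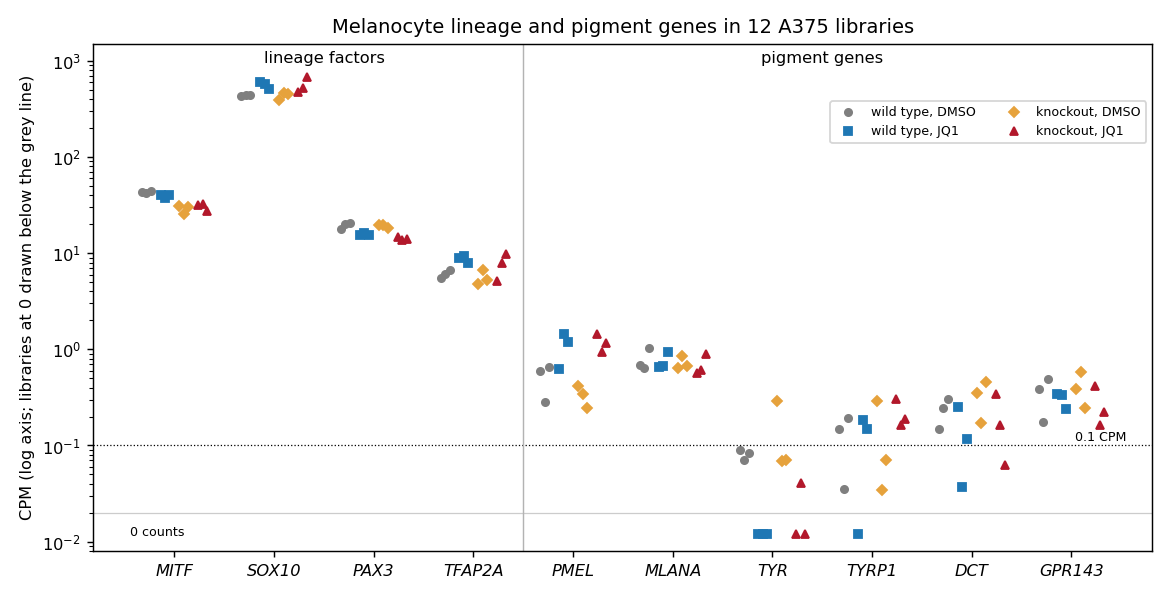
Level of each of the 10 genes in each of the 12 libraries, in CPM on a log axis, with 1 symbol per library and the dotted line at 0.1 CPM; libraries with 0 counts are drawn in the strip at the bottom. SOX10 lies between 389 and 687 CPM, while TYR reaches 0.289 CPM at most and is at 0 in 5 libraries.

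Levels of different genes were compared per kilobase of the longest coding transcript in GENCODE release 29. In wild-type DMSO the order was SOX10 (152 ± 2.56 CPM per kb), MITF (8.95 ± 0.210), PAX3 (6.15 ± 0.473) and TFAP2A (1.59 ± 0.148), all SD with n = 3 and each separated from the next by more than the spread. MLANA (0.323 ± 0.0856), GPR143 (0.200 ± 0.0917) and PMEL (0.186 ± 0.0731) followed, and these 3 did not differ from each other beyond their spread. DCT (0.0460 ± 0.0153), TYRP1 (0.0441 ± 0.0284) and TYR (0.0326 ± 0.00378) were lowest and overlapped likewise. The SD of TYR rests on 2 to 3 counts per library and is smaller than the counting error. The pigment enzymes were thus at the bottom of the order. The lineage factors kept this order in the other groups except in knockout DMSO, where MITF (5.99 ± 0.591) and PAX3 (6.07 ± 0.223) could not be separated. Over the median length of coding transcripts MITF was above PAX3 in knockout DMSO too, at 15.2 against 12.2 CPM per kb.

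Of the 10 members, 7 had enough counts to be tested, and TYR, TYRP1 and DCT did not. The filter asked for about 0.339 CPM in at least 3 libraries, and GPR143 passed it with 5 libraries above that level. The test was the quasi-likelihood test of edgeR, adjusted by the Benjamini-Hochberg method over all 21698 genes tested, and "edgeR adjusted p" below means that value, called at 0.05. With JQ1 in wild-type cells 3 of the 7 were called, SOX10 and PMEL higher and PAX3 lower. Over all genes, 33.1% of those tested were called in that comparison, 16.9% higher and 16.2% lower. With JQ1 in knockout cells the same 3 genes were called in the same directions, against 34.4% of all tested genes, 16.7% higher and 17.8% lower. In knockout against wild-type cells only MITF was called, lower in DMSO and lower in JQ1. The background was 7.92% in DMSO, 3.47% higher and 4.44% lower, and 8.57% in JQ1, 3.01% higher and 5.56% lower. The number of members called is of the order of that background and is not a result about these genes; the results are which genes moved and by how much. The JQ1 and knockout comparisons share libraries with each other, such as wild-type DMSO, so they are given side by side and were not set against each other.

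**Figure D2:**
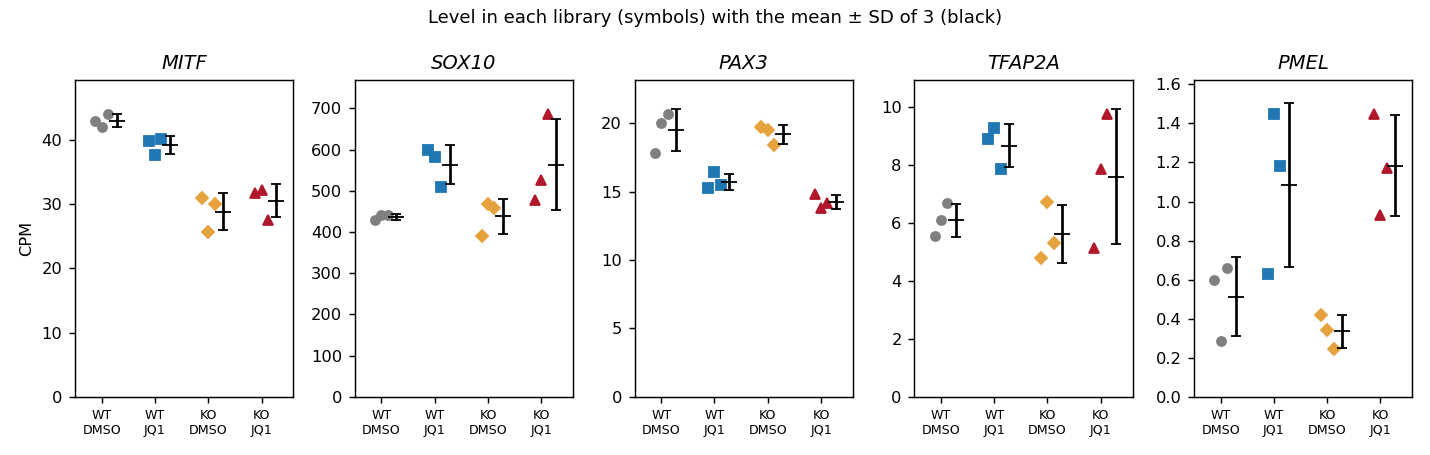
Level in CPM (axes from 0) of the 4 lineage factors and PMEL in each library, by group (WT, wild type; KO, knockout), with the mean ± SD of 3 replicates in black beside the symbols. The 6 knockout libraries lie below the 6 wild-type libraries for MITF, and the JQ1 libraries lie above the DMSO libraries of the same genotype for SOX10.

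MITF RNA was lower in knockout than in wild-type cells, with a ratio of 0.669 with DMSO and 0.776 with JQ1. MITF (ENSG00000187098.15, chr3:69739435-69968337 on GRCh38) was at 42.9, 42.1 and 44.1 CPM in wild-type DMSO and at 30.9, 25.6 and 30 CPM in knockout DMSO. With JQ1 it was at 39.9, 37.6 and 40.2 CPM in wild type and at 31.8, 32.2 and 27.6 CPM in knockout. Every knockout library was below every wild-type library. The log2 fold change of knockout against wild type was -0.58 (SE 0.0806, edgeR adjusted p = 0.000323) in DMSO. In JQ1 it was -0.37 (SE 0.0810, edgeR adjusted p = 0.0102). In bulk RNA, fewer cells with the gene and less RNA per cell cannot be told apart.

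The fall of MITF in DMSO passed the threshold in every alternative analysis run. In JQ1 it passed in all but 1: with only the 2 groups compared in the fit, the log2 fold change was -0.36 with edgeR adjusted p = 0.0534. Without knockout JQ1 replicate 3 it was -0.30 (edgeR adjusted p = 0.0195). MITF was not called with JQ1 in either genotype. The wild-type JQ1 libraries were all below the wild-type DMSO libraries, but the log2 fold change was -0.13 (95% interval about -0.29 to 0.02, edgeR adjusted p = 0.220). In knockout cells it was 0.08 (interval -0.08 to 0.24, edgeR adjusted p = 0.499). The difference between these responses was 0.21 (SE 0.114, edgeR adjusted p = 0.647), so a different JQ1 response of MITF between genotypes was not shown. Intervals here are the estimate ± 2 SE.

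The neighbours of MITF on chromosome 3 were also read with the knockout. Among 29 other tested genes starting within 5 Mb of it, 1 was called lower and 2 higher in DMSO, and 0 lower and 1 higher in JQ1. Over all tested genes 4.44% were called lower and 3.47% higher in DMSO, and 5.56% and 3.01% in JQ1. The counts near MITF are small, and a part of the region in its fall was not tested. On chromosome 1, 129 of the 300 tested genes distal to MAPKAPK2 (43.0%) were called lower in DMSO and 139 (46.3%) in JQ1. No member is on chromosome 1, and among the genes tested beside them LYST and GPR137B, named below, lie in that distal stretch.

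SOX10, which maintains the neural crest and melanocyte lineage and activates MITF, rose with JQ1 and was not called with the knockout. SOX10 (ENSG00000100146.16, chr22:37970686-37987422, minus strand) was at 428, 442 and 440 CPM in wild-type DMSO and at 599, 581 and 509 CPM in wild-type JQ1. In knockout cells it was at 389, 468 and 457 CPM in DMSO and at 477, 525 and 687 CPM in JQ1. Each JQ1 library was above every DMSO library of its genotype, in knockout cells by a margin of 477 against 468 CPM. The log2 fold change with JQ1 was 0.37 (SE 0.110, ratio 1.29, edgeR adjusted p = 0.0189) in wild type and 0.36 (SE 0.110, ratio 1.29, edgeR adjusted p = 0.0190) in knockout. Knockout against wild type it was 0.00 in DMSO (95% interval about -0.21 to 0.22) and in JQ1 (-0.22 to 0.22).

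The SOX10 calls were fragile. In wild type the call was lost without wild-type DMSO replicate 1 (0.36, edgeR adjusted p = 0.0513) and without replicate 1 (0.32, 0.0760) or replicate 2 (0.35, 0.0629) of the JQ1 libraries. In knockout it was lost without knockout DMSO replicate 1 (0.28, edgeR adjusted p = 0.0792) or knockout JQ1 replicate 3 (0.19, 0.0669), where the value was also lower by over 1.5 times. It was lost there too with only the groups compared in the fit (0.35, edgeR adjusted p = 0.0583). With library totals in place of TMM scaling it was lost in both genotypes (0.24, edgeR adjusted p = 0.0925 and 0.24, 0.0829). Over all tested genes that scaling moved the median by -0.128 and -0.115 in these comparisons.

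SOX10 transcripts are GC-rich, at 63.5% against a median of 48.0% over tested genes, and SOX10 moved with the GC relation of the libraries. In wild-type JQ1 that relation was 0.213, 0.160 and -0.0814 for replicates 1, 2 and 3, the same order as the SOX10 levels. In knockout JQ1 it was -0.127, -0.0739 and 0.498, again in the order of the SOX10 levels. In the DMSO groups the orders were not the same. With the GC relation of each library taken into the fit, an analysis added after the data were seen, the JQ1 rise of SOX10 was 0.25 (SE 0.0396, edgeR adjusted p = 0.000111) in wild type. In knockout it was 0.31 (SE 0.0397, edgeR adjusted p = 8.9e-06). The rise was thus smaller in that fit, with a smaller error. SOX10 also shares an exonic stretch of 78 bases with POLR2F on the opposite strand. POLR2F rose by 0.39 (SE 0.0491) with JQ1 in wild-type cells and by 0.35 (SE 0.0490) in the knockout, and whether the counting kept the strands apart is not stated.

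PAX3, the paired-box factor of melanocyte precursors, fell with JQ1 in both genotypes. PAX3 (ENSG00000135903.19, chr2:222199888-222298996, minus strand) was at 17.8, 20.0 and 20.7 CPM in wild-type DMSO and at 15.3, 16.4 and 15.5 CPM in wild-type JQ1. In knockout cells it was at 19.7, 19.5 and 18.4 CPM in DMSO and at 14.8, 13.8 and 14.2 CPM in JQ1. No JQ1 library reached the lowest DMSO library of its genotype. The log2 fold change was -0.31 (SE 0.0781, ratio 0.807, edgeR adjusted p = 0.00665) in wild type and -0.43 (SE 0.0794, ratio 0.743, edgeR adjusted p = 0.000647) in knockout. Knockout against wild type it was -0.02 in DMSO (95% interval about -0.17 to 0.14) and -0.14 in JQ1 (-0.30 to 0.02, edgeR adjusted p = 0.363).

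The fall of PAX3 in wild type was lost with the authors' own scaling factors (-0.22, edgeR adjusted p = 0.109) and with limma on the authors' normalized signal (-0.21, limma adjusted p = 0.120). In knockout it passed in every alternative run, with -0.43 (edgeR adjusted p = 0.00129) without knockout JQ1 replicate 3. Those factors differed between libraries for PAX3 by -0.26 to 0.13 on the log2 scale relative to each library's median factor. For SOX10 they differed by only -0.0083 to 0.0036.

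TFAP2A, an AP-2 factor of neural crest and melanocytes, was higher in most JQ1 libraries but was not called. TFAP2A (ENSG00000137203.11, chr6:10393186-10419659, minus strand) was at 5.54, 6.09 and 6.68 CPM in wild-type DMSO and at 8.89, 9.28 and 7.87 CPM in wild-type JQ1, with no overlap. In knockout cells it was at 4.81, 6.73 and 5.30 CPM in DMSO and at 5.14, 7.87 and 9.78 CPM in JQ1, with overlap. The highest of the 12 values was that of knockout JQ1 replicate 3, the library that stood apart, and without it the JQ1 value in knockout was 0.21. Without knockout JQ1 replicate 1, the lowest of that group, it was 0.66 (edgeR adjusted p = 0.00514). The log2 fold change with JQ1 was 0.50 (SE 0.187, edgeR adjusted p = 0.0516) in wild type and 0.44 (SE 0.192, edgeR adjusted p = 0.0904) in knockout, where it passed in 4 of 22 alternatives. The adjusted p in wild type lay next to the threshold, and passed it in 10 of 22 alternatives, among them DESeq2 (0.52, adjusted p = 0.0299). Exons of TFAP2A share up to 709 bases with the antisense gene TFAP2A-AS2, so the counts of TFAP2A are uncertain where strands were not kept apart. They also share up to 269 bases with the antisense gene TFAP2A-AS1, which was at 0.055 to 0.491 CPM over the 12 libraries.

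PMEL, whose product forms the fibrils on which melanin is laid down, was the only pigment gene that was called, and rose with JQ1 from a low level. PMEL (ENSG00000185664.14, chr12:55954105-55973317, minus strand) was at 0.596, 0.283 and 0.660 CPM in wild-type DMSO and at 0.628, 1.45 and 1.18 CPM in wild-type JQ1. These are 52 counts over the 3 DMSO libraries and 99 over the 3 JQ1 libraries, and replicate 1 with JQ1 lay within the DMSO range. In knockout cells PMEL was at 0.417, 0.343 and 0.246 CPM in DMSO, 30 counts in all. With JQ1 it was at 1.45, 0.933 and 1.17 CPM there, 98 counts in all, and those groups did not overlap. The log2 fold change was 1.04 (SE 0.352, ratio 2.06, edgeR adjusted p = 0.0340) in wild type and 1.80 (SE 0.382, ratio 3.49, edgeR adjusted p = 0.00188) in knockout.

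The responses of PMEL in the genotypes were not shown to differ, with an interaction of 0.76 (SE 0.526, edgeR adjusted p = 0.744). Knockout against wild type, the log2 fold change was -0.63 (95% interval about -1.45 to 0.20) in DMSO and 0.14 (-0.52 to 0.79) in JQ1. In wild type the call was lost without wild-type DMSO replicate 1 (1.15, edgeR adjusted p = 0.0576) or 2 (0.78, 0.126), and without wild-type JQ1 replicate 2 (0.80, 0.149) or 3 (0.97, 0.0914). In knockout it passed wherever it was tested, with 1.81 (edgeR adjusted p = 0.00372) without knockout JQ1 replicate 3. PMEL shares an exonic stretch of 66 bases with CDK2 on the opposite strand, and CDK2, a cell cycle kinase, rose with JQ1 by 0.51 (SE 0.0491) in wild type and 0.53 (SE 0.0493) in knockout.

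**Figure D3:**
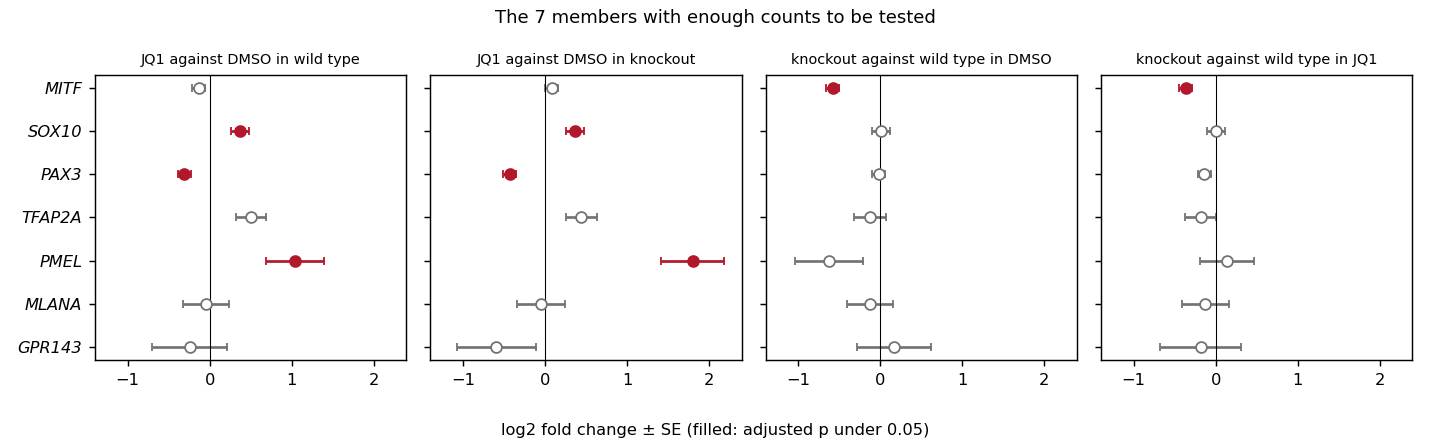
Log2 fold change ± SE of the 7 tested members in 4 comparisons, with filled symbols for edgeR adjusted p under 0.05. SOX10, PAX3 and PMEL are filled in both JQ1 comparisons, and MITF alone is filled in both knockout comparisons.

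MLANA, the melanosome protein also known as Melan-A, was low and was not called in any comparison. MLANA (ENSG00000120215.9, chr9:5890802-5910606, plus strand) was at 0.686, 0.637 and 1.02 CPM in wild-type DMSO and at 0.660, 0.668 and 0.947 CPM in wild-type JQ1. In knockout cells it was at 0.641, 0.858 and 0.667 CPM in DMSO and at 0.571, 0.609 and 0.886 CPM in JQ1. All 4 groups overlapped. With JQ1 its log2 fold change was -0.05 (95% interval about -0.60 to 0.51) in wild type and -0.05 (-0.63 to 0.53) in knockout. Against wild type the knockout gave -0.12 (-0.69 to 0.44) in DMSO and -0.13 (-0.70 to 0.45) in JQ1. Differences within these intervals were not detectable at this depth.

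GPR143, the ocular albinism receptor of the melanosome membrane, gave from 4 to 18 counts per library. GPR143 (ENSG00000101850.12, chrX:9725346-9786297, minus strand) was at 0.353 ± 0.162 CPM in wild-type DMSO and 0.305 ± 0.0598 CPM in wild-type JQ1, and in the knockout at 0.405 ± 0.170 with DMSO and 0.268 ± 0.134 with JQ1 (SD, n = 3). All groups overlapped, and none of the comparisons was called. Apart from the interaction, the widest interval was that of knockout against wild type in JQ1, about -1.18 to 0.81 on the log2 scale.

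The 3 melanin-making enzymes were near the limit of detection. DCT (dopachrome tautomerase, ENSG00000080166.15, chr13:94436808-94479682, minus strand) was at 0.149, 0.248 and 0.302 CPM in wild-type DMSO and at 0.353, 0.172 and 0.456 CPM in knockout DMSO. With JQ1 it was at 0.251, 0.0371 and 0.118 CPM in wild type and at 0.343, 0.162 and 0.0633 CPM in knockout. Its groups overlapped. TYRP1 (ENSG00000107165.12, chr9:12685439-12710290, plus strand) had from 0 to 9 counts per library after rounding, at most 0.305 CPM, and its groups overlapped too. It shares an exonic stretch of 102 bases with the antisense gene LURAP1L-AS1.

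TYR, tyrosinase, the rate-limiting enzyme of melanin synthesis, was detected in all 6 DMSO libraries and in 1 of the 6 JQ1 libraries. TYR (ENSG00000077498.8, chr11:89177452-89295759, plus strand) had rounded counts of 3, 2 and 3 in wild-type DMSO and of 9, 2 and 2 in knockout DMSO. With JQ1 it had 0 counts in all 3 wild-type libraries, which allows a level of up to 0.0887 to 0.111 CPM. In knockout JQ1 it had 0, 1 and 0 counts. The wild-type DMSO levels were 0.0708 to 0.0894 CPM, close to what a count of 0 allows in 1 library, and the groups compare 8 counts over 3 libraries with 0 over 3. With no filter on low counts the edgeR adjusted p for JQ1 was 0.0518 in wild type and 0.0740 in the knockout. Of the 14 markers of keratinocytes, immune cells and endothelium, 10 had a higher mean over the libraries than TYR.

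Genes of the pathway around the members were read from lists chosen from general knowledge, with earlier results of these data known. Of 24 genes of the melanosome and its transport, 22 were tested. With the knockout 4.44% of all tested genes were called lower and 3.47% higher in DMSO, and 5.56% and 3.01% in JQ1. Of the 22 listed genes, 5 were called lower and 1 higher in DMSO, and 4 lower and 1 higher in JQ1. Their median log2 fold change was 0.02 in DMSO and -0.12 in JQ1, against 0.00 over all tested genes in each. GPNMB, a melanosome glycoprotein, went from 86.3 ± 2.05 CPM in wild type to 57.9 ± 0.663 in knockout in DMSO (-0.58, SE 0.0685, edgeR adjusted p = 7.68e-05). In JQ1 it went from 83.7 ± 1.33 to 49.5 ± 5.41 CPM (-0.76, SE 0.0692, edgeR adjusted p = 5.48e-06). Its groups did not overlap.

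OCA2, a melanosome membrane protein needed for pigment, went from 1.37 ± 0.179 to 0.532 ± 0.0755 CPM with the knockout in DMSO (-1.37, SE 0.238, edgeR adjusted p = 0.00181). That compares 136 with 47 counts. In JQ1 OCA2 was not called (-0.80, SE 0.252, edgeR adjusted p = 0.0672). LYST, a regulator of lysosome-related organelles, went from 81.9 ± 1.89 to 53.0 ± 1.89 CPM in DMSO (-0.63, SE 0.0865, edgeR adjusted p = 0.000299). LYST lies on chromosome 1 at 235661041 to 235883640, within the stretch distal to MAPKAPK2 in which 43.0% of genes were called lower. The part of that stretch in the LYST result was not tested. The other genes called lower were TPCN2 and MLPH, which were lower in JQ1 too, and they are named here after their values were seen. CD63, a tetraspanin of melanosomes and other endosomal organelles, was the gene called higher, from 230 ± 8.46 to 275 ± 3.95 CPM in DMSO (0.26, SE 0.0530, edgeR adjusted p = 0.00596).

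With JQ1 the same list gave 4 higher and 3 lower of 22 in wild type and 3 higher and 3 lower in knockout, with medians of 0.07 and -0.04 against -0.03 and 0.00 over all genes. CD63 rose from 230 ± 8.46 to 358 ± 19.3 CPM in wild type (0.64, SE 0.0531, edgeR adjusted p = 4.67e-07). RAB27A, the GTPase that moves melanosomes along the cell cortex, fell from 5.83 ± 0.322 to 3.61 ± 0.487 CPM (-0.69, SE 0.157, edgeR adjusted p = 0.00351). In knockout cells RAB27A fell by 0.92 on the log2 scale and CD63 rose by 0.71. The shares called, 7 of 22 and 6 of 22, lie near the 33.1% and 34.4% of all tested genes, so these are values of single genes and no result about the list.

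**Figure D4:**
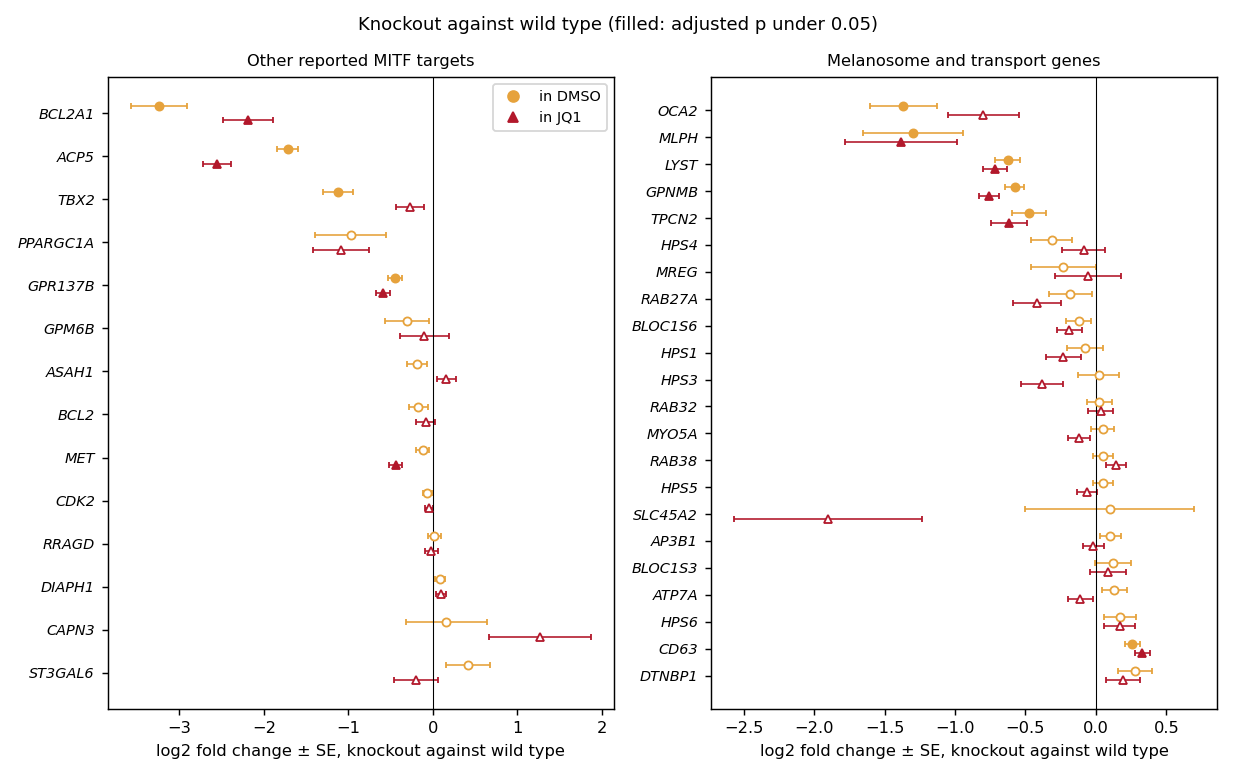
Log2 fold change ± SE of knockout against wild type for the tested genes of 2 lists, in DMSO (circles) and JQ1 (triangles), with filled symbols for edgeR adjusted p under 0.05. BCL2A1 and ACP5 lie farthest to the left among other reported MITF targets, at -3.24 and -1.72 in DMSO, and no gene of that list is filled to the right of 0. Of all tested genes 3.47% were called higher in DMSO and 3.01% in JQ1.

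Of 16 other genes reported as MITF targets, 14 were tested, and 4 were called lower and 0 higher with the knockout in each treatment. Of all tested genes 4.44% were called lower and 3.47% higher in DMSO, and 5.56% and 3.01% in JQ1. The median log2 fold change of the 14 genes was -0.18 in DMSO and -0.15 in JQ1, against 0.00 over all tested genes. ACP5, an acid phosphatase, had 9.62 ± 0.670 CPM in wild type and 2.92 ± 0.00246 in knockout in DMSO (-1.72, SE 0.121, edgeR adjusted p = 4.88e-07). In JQ1 it had 3.16 ± 0.409 and 0.533 ± 0.00534 CPM (-2.56, SE 0.167, edgeR adjusted p = 1.73e-07). The knockout SDs rest on 83 to 91 counts per library in DMSO and 13 to 17 in JQ1, and are smaller than the counting error. JQ1 lowered ACP5 too, by 1.61 on the log2 scale in wild type and by 2.44 in knockout, so that its level was lowest with both.

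BCL2A1, a BCL2-family survival gene, went from 1.53 ± 0.115 to 0.157 ± 0.0772 CPM with the knockout in DMSO (-3.24, SE 0.336, edgeR adjusted p = 2.08e-05), on 149 against 14 counts. In JQ1 it went from 1.56 ± 0.416 to 0.344 ± 0.0604 CPM (-2.19, SE 0.299, edgeR adjusted p = 0.000244). TBX2, a repressor of senescence genes, went from 22.5 ± 0.781 to 10.3 ± 2.33 CPM in DMSO (-1.12, SE 0.174, edgeR adjusted p = 0.000785). It was not called in JQ1 (-0.27, SE 0.165), and the interaction was not called either (0.85, SE 0.239, edgeR adjusted p = 0.273). The remaining calls were GPR137B in both treatments and MET in JQ1, where MET was at 198 ± 6.60 CPM in wild type and 146 ± 19 in knockout. GPR137B lies on chromosome 1 at 236142505 to 236221865, in the same distal stretch as LYST. The reported targets called lower were thus 4 of the 14 tested in each treatment. Over all tested genes 4.44% were called lower in DMSO and 5.56% in JQ1, and the list was not tested as a set. None of PMEL, MLANA and GPR143, the pigment genes tested, was called with the knockout, and TYR, TYRP1 and DCT were too low to be tested.

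With JQ1, 6 of these 14 genes were called higher and 2 lower in wild type, and 6 higher and 1 lower in knockout. Over all tested genes 16.9% and 16.7% were called higher, and 16.2% and 17.8% lower. The medians were 0.31 and 0.22, against -0.03 and 0.00 over all tested genes. ASAH1, an acid ceramidase, rose in knockout cells from 11.9 to 21.5 CPM (0.85, SE 0.114, edgeR adjusted p = 3.94e-05). CDK2 rose from 90.5 to 129 CPM in wild type (0.51, SE 0.0491, edgeR adjusted p = 2.17e-06) and by 0.53 on the log2 scale in knockout. Over the same comparisons MITF itself was not called.

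Among 13 genes that act upstream of MITF, 11 were tested. With JQ1 4 were called higher and 2 lower in wild type, and 3 higher and 2 lower in knockout, where 33.1% and 34.4% of all tested genes were called. The medians were 0.12 and 0.07, against -0.03 and 0.00 over all tested genes. FOXD3, a neural crest factor that represses MITF, fell in wild type from 10.5 ± 0.634 to 5.66 ± 0.0330 CPM (-0.89, SE 0.160, edgeR adjusted p = 0.000585). Its SD with JQ1 rests on 153 to 192 counts per library and is smaller than the counting error. In knockout cells FOXD3 was not called with JQ1 (-0.43, SE 0.167, edgeR adjusted p = 0.0614). ZEB2, a zinc finger factor of differentiated melanocytes, fell from 68.2 ± 4.08 to 50.3 ± 1.23 CPM in wild type (-0.44, SE 0.0682, edgeR adjusted p = 0.000170) and by 0.63 on the log2 scale in knockout. EDNRB, the endothelin receptor of melanoblasts, fell in knockout cells from 71.9 ± 5.45 to 52.7 ± 5.69 CPM (-0.45, SE 0.0856, edgeR adjusted p = 0.000814). In wild type EDNRB was not called (-0.21, SE 0.085, edgeR adjusted p = 0.0755).

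With the knockout 4.44% of all tested genes were called lower in DMSO and 5.56% in JQ1. Of the 11 upstream genes, 1 was called lower in DMSO and 0 in JQ1. That gene was FOXD3, from 10.5 ± 0.634 to 6.64 ± 0.824 CPM (-0.66, SE 0.158, edgeR adjusted p = 0.0173). Its call was lost when wild-type DMSO replicate 2 or 3, or knockout DMSO replicate 1 or 3, was left out (edgeR adjusted p = 0.0622, 0.0645, 0.0782 and 0.0613). MC1R, the melanocortin receptor, was at 13.7 ± 1.19 CPM in wild-type DMSO and KIT, the receptor of stem cell factor, at 0.163 ± 0.0386 CPM; the 2 are named for their role and were not called with the knockout.

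Relatives of the lineage factors were read beside them, since they can bind the same sites. Of 10 relatives 7 were tested, and 2 were called lower with JQ1 in each genotype. That is close to the share over all tested genes, of which 16.2% were called lower in wild type and 17.8% in knockout, and 33.1% and 34.4% in either direction. TFAP2B, the AP-2 relative of TFAP2A, fell from 229 ± 5.98 to 99.7 ± 0.848 CPM in wild type (-1.20, SE 0.0802, edgeR adjusted p = 5.77e-08). In knockout cells it fell from 294 ± 19.6 to 123 ± 16.7 CPM (-1.25, SE 0.0801, edgeR adjusted p = 2.77e-08). SOX8, of the same SOX group as SOX10, fell from 120 to 12 counts over 3 libraries in wild type and from 97 to 4 in knockout. The fitted log2 values were -3.18 (SE 0.419) and -4.37 (SE 0.523). SOX10 rose in the same comparisons, and TFAP2A, which was not called, had values above 0.

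With the knockout 7.92% of all tested genes were called in DMSO and 8.57% in JQ1, in either direction. Of the 7 relatives tested, 1 was called higher and 1 lower in each treatment. TFAP2B was the higher one, by 0.36 (SE 0.0785, edgeR adjusted p = 0.00948) in DMSO and 0.31 (SE 0.0800, edgeR adjusted p = 0.0263) in JQ1. In JQ1 the value was 0.19 without knockout JQ1 replicate 3 (edgeR adjusted p = 0.0424), and the call was lost when any of the 3 wild-type JQ1 replicates was left out (edgeR adjusted p = 0.0765, 0.0833 and 0.0836). The lower one, named after its value was seen, was SOX9, at 0.537 ± 0.104 CPM in wild type and 0.0664 ± 0.0576 in knockout in DMSO. TFE3, the MITF relative with the most counts, was at 24.3 ± 1.87 CPM in wild-type DMSO and 24.5 ± 3.16 in knockout DMSO.

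The genes of the dedifferentiated melanoma state, a state known for low MITF, were read as a list of 11, all tested. With the knockout 4 were called lower and 0 higher in DMSO, and 3 lower and 0 higher in JQ1. Of all tested genes 4.44% were called lower and 3.47% higher in DMSO, and 5.56% and 3.01% in JQ1. At those shares 0 of 11 called higher is of the order of the background, while the 4 and 3 called lower are above it. The list was not tested as a set. The medians of the list were -0.28 and -0.33, against 0.00 over all tested genes. NGFR, the low-affinity nerve growth factor receptor, went from 8.01 ± 1.07 to 1.70 ± 0.384 CPM in DMSO (-2.23, SE 0.171, edgeR adjusted p = 1.06e-06). WNT5A, a noncanonical WNT ligand, went from 68.2 to 50.8 CPM (-0.43, SE 0.0597, edgeR adjusted p = 0.000351). The others called lower in DMSO were NRG1 (-1.83, SE 0.335, edgeR adjusted p = 0.00272) and AXL, a receptor tyrosine kinase. AXL, named here after its value was seen, went from 248 ± 6.51 to 198 ± 17.3 CPM (-0.32, SE 0.0806, edgeR adjusted p = 0.0224). With JQ1 4 of the 11 rose and 2 fell in each genotype, against 33.1% of all tested genes called in wild type and 34.4% in knockout. The JQ1 medians were 0.21 and 0.05, against -0.03 and 0.00 over all tested genes. With JQ1 AXL rose from 248 ± 6.51 to 469 ± 35.6 CPM in wild type (0.92, SE 0.0807, edgeR adjusted p = 8.35e-07). LOXL2, a lysyl oxidase, rose from 90.9 ± 1.53 to 206 ± 12.3 CPM there (1.18, SE 0.0812, edgeR adjusted p = 7.57e-08). In knockout cells AXL rose by 1.01 and LOXL2 by 1.23 on the log2 scale. The 2 that fell in wild type were NGFR (-0.84, SE 0.154, edgeR adjusted p = 0.00069) and NRG1 (-0.96, SE 0.307, edgeR adjusted p = 0.0264). In knockout they were WNT5A (-0.39, SE 0.0609, edgeR adjusted p = 0.000165) and ZEB1 (-0.56, SE 0.154, edgeR adjusted p = 0.0108). The genes that fell with JQ1 are named after their values were seen.

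No member responded to JQ1 differently in the 2 genotypes by the test. For the interaction edgeR's quasi-likelihood test called 0 of the 7 tested members, 0 were at an unadjusted p under 0.05, and DESeq2 and limma likewise called 0. Over all genes 0.134% of those tested were called, 29 genes, and 1817 were at an unadjusted p under 0.05.

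The genes most like SOX10 and PMEL in level were found by Pearson's r of log2 CPM over the 12 libraries, taken over genes whose mean level was 5 CPM or more. For SOX10 they were DNMT1 (r = 0.993), TONSL (0.991) and MARK2 (0.986), the highest of 11250 genes. Their transcripts held 55.4%, 65.7% and 60.1% GC, all above the median of tested genes, and the 12 points share each library's GC relation and depth. For PMEL they were TARSL2 (r = 0.926), ST6GALNAC3 (0.925) and SRSF5 (0.925), among 11251 genes, with GC contents of 45.3%, 36.9% and 49.0%. These are descriptions of 12 libraries in 4 groups, with no test.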

How the data were processed

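RNA was measured in 12 libraries of 4 groups. Per the labels' protocols, total RNA was depleted of ribosomal RNA and made into directional libraries. The submitters' processing notes name Trim Galore, cutadapt, FastQC, MultiQC, kallisto, DESeq2 and build GRCh38.p10, with no roles or settings. The authors deposited estimated counts per gene symbol, and a normalized signal for 32828 genes whose values are rounded counts over a factor that varies by gene and library. How transcripts were summed, and whether strand was used, is not given in the sources used here. Titles call the groups without JQ1 untreated while the treatment field says DMSO, which was followed.

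Estimated counts were rounded to whole numbers, which replaced raw counts in the tests. All 12 libraries entered 1 fit with edgeR's quasi-likelihood test (edgeR 4.0.16, limma 3.58.1, R 4.3.3) after filterByExpr and TMM scaling (factors 0.926 to 1.06). The 21698 genes tested held 99.9% of the counts of each library. Benjamini-Hochberg adjustment ran over those genes, with a threshold of 0.05, for 5 contrasts: JQ1 against DMSO per genotype, knockout against wild type per treatment, and the interaction. The SE is the absolute log2 fold change over the square root of F, and fold changes used a prior count of 0.125. The fit was tested on simulated data in which only genes with a mean of 5 CPM or more were changed. Calls at the lower levels of PMEL, MLANA and GPR143 were thus not covered. Replicate pairs differed by more than sampling noise, so none was merged.

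Positions, transcript lengths and GC content come from GENCODE release 29 on GRCh38 by symbol; GC was known for 97.7% of tested genes. The named genes were the members and MAPKAPK2. From each list came up to 3 called genes per contrast with the smallest adjusted p and at least 1 CPM in a group. Of the genes that this rule gave, HPS1, TCF7L2, CTNNB1, JUN and EGFR are not described, and others are given for some contrasts only. The 3 genes most like the top member of each class (log2 CPM with a prior count of 2) were added, and exceptions are marked. The members, lists and rules were chosen with earlier results of these data known. Alternatives were DESeq2 1.42.0 (also its size factors in edgeR), library totals, other filters, fits of only the groups compared, a replicate block, the authors' factors, limma on log2(signal + 1), each library left out and, added later, GC offsets.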

Additional observations from a re-analysis of the deposited data

How the results depend on the processing

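The falls of MITF with the knockout in DMSO and of PAX3 with JQ1 in knockout cells passed the threshold in all 22 alternatives, and no called member reversed. In wild type PMEL lost its call with library totals (edgeR adjusted p = 0.0554) and limma (adjusted p = 0.0548), and MITF gained one with library totals (-0.26, adjusted p = 0.0264). Members called with JQ1 in wild type numbered 1 with limma and 1 to 4 with a library left out. In knockout they numbered 5 with GC offsets, where TFAP2A and MITF (0.19, adjusted p = 0.0218) were added. With only the groups compared, 0 members were called for the knockout in JQ1. Over all genes, the knockout calls in DMSO were 2619 with only the groups compared, 2910 with GC offsets and 1092 to 2650 with a library left out (1102 and 1096 without wild-type DMSO replicates 1 and 2, 1092 without knockout DMSO replicate 3, 2650 without knockout JQ1 replicate 3). In JQ1 they were 922, 3289 and 1223 to 2331 (1223 without wild-type JQ1 replicate 2). Interaction calls were 236 with no filter, 130 with DESeq2, 155 with GC offsets and 8 to 88 with a library left out (88 without knockout JQ1 replicate 3). The causes were not tested. Silent members numbered 5 at 1 CPM and 0 to 1 with a library left out.

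Log2 fold changes that changed sign were all uncalled. With library totals they were MITF with JQ1 in knockout (-0.034) and SOX10 with the knockout in DMSO (-0.042) and JQ1 (-0.033). SOX10 with the knockout was also -0.015 in JQ1 with no filter, -0.0087 there with limma, and -0.0047 in DMSO with GC offsets. With the authors' factors MLANA gave 0.016 for JQ1 in wild type and 0.11 for the knockout in DMSO, and PAX3 0.024 for the knockout in DMSO. With limma these 3 were 0.051, 0.15 and 0.030, and MLANA with the knockout in JQ1 was 0.011. With GC offsets MLANA gave 0.058 and 0.076 for JQ1 in wild type and knockout. With a library left out the ranges were, for JQ1 in wild type, MLANA -0.24 to 0.21 and GPR143 -0.53 to 0.081. For JQ1 in knockout they were MITF -0.0036 to 0.15 and MLANA -0.29 to 0.083. For the knockout in DMSO they were SOX10 -0.029 to 0.092, PAX3 -0.072 to 0.035, MLANA -0.25 to 0.13 and GPR143 -0.17 to 0.50. For the knockout in JQ1 they were SOX10 -0.17 to 0.11, TFAP2A -0.42 to 0.031, PMEL -0.14 to 0.38, MLANA -0.37 to 0.068 and GPR143 -0.63 to 0.052.

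Equal replicate numbers did not pair the libraries. Deviations of same-numbered libraries from their group means correlated by -0.486 to 0.374 over 18 pairs, of which 4 were over 0.1, and those of different numbers by -0.486 to 0.400 over 36. With the replicate number as a block PMEL lost its call with JQ1 in wild type (1.06, edgeR adjusted p = 0.0534), TFAP2A gained one there (0.51, adjusted p = 0.0384), and SOX10 with the knockout in JQ1 was -0.011; the number of members called did not change. The interaction with only the groups compared was not run, since it uses all groups.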
